A study of Mus musculus with 8 samples.

Results

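Regions named for CREB that stood in all 3 of the deposited region lists (crebcomb, crebcomb_b2 and crebcomb3) were attached to 1757 of 25481 gene rows, or 6.90%. A gene row is a distinct combination of chromosome, start, stop, strand and RefSeq transcript, and it was taken as a member where a region height from each list was present on any of its rows. The members carried 1418 gene symbols. A further 5616 gene rows had a region in exactly 2 lists, 1704 in exactly 1 list and 16404 in none. Regions were given only within 2000 bases of a small RNA cluster paired with the gene row. A row with no region may thus still have a CREB region elsewhere, even at its own start. The mRNA values came from hippocampi of C57BL/6 mice taken at time zero as controls, or 12 h, 10 d or 6 wk after status epilepticus, in which seizures continue without recovery. The sources used here give no genotype beyond the strain, no age and no method of seizure induction. Each of the 4 groups had 2 poly(A) libraries, made from cDNA pooled over 2 animals apiece. The sources also leave unstated the tissue, antibody and control behind the CREB lists and the scale of their heights, and no CREB value belongs to a library or a time.

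CREB is a transcription factor that is phosphorylated when neurons fire and that binds the cAMP response element, or CRE. The full element is a palindrome, and a shorter core with a CpG is bound as well, mostly close to gene starts. In neurons CREB is known for driving immediate early genes such as Fos, and for driving the paired microRNAs miR-132 and miR-212, which are processed from 1 host transcript.

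The element is shown first at the locus of those microRNAs, which held the most CREs of any region in the set and which carried small RNA rises described further on. In the sequences below, capitals mark the full CRE, TGACGTCA, read 5′ to 3′ on the plus strand of mm9. The first stretch lies at chr11:74986732-74986835 and holds a pair of CREs that end 125 and 109 bases before the small RNA cluster of miR-212-5p. The second lies at chr11:74987123-74987180, touches the gene model of Mir132, and holds a CRE that ends 33 bases before the cluster of miR-132-5p.
CRE pair before miR-212: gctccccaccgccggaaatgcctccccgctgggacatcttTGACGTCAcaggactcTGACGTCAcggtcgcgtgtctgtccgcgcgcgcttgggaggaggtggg
CRE between miR-212 and miR-132: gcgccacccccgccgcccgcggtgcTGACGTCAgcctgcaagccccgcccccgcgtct

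Full CREs also stood in regions at other gene starts, and 3 examples are printed. Their gene starts lay within 2000 bases of all 3 regions and their stretches touched no exon. The same held for Tmem147, which is not printed. Each printed stretch is read on the strand of its gene. The stretch of Tubb2a, a beta-tubulin, is chr13:34169889-34169976 on the minus strand, with the CRE 56 bases before the start. That of Hsp90ab1, a constitutive HSP90 chaperone, is chr17:45710296-45710383 on the minus strand, with the CRE 130 bases before it. That of Tead1, a transcription factor of the Hippo pathway, is chr7:119822715-119822802 on the plus strand, with the CRE 74 bases before it. A second CRE of the Tead1 region, 26 bases before the start, begins just past the printed stretch.
Tubb2a: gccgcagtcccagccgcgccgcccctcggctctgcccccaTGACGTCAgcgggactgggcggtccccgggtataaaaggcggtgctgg
Hsp90ab1: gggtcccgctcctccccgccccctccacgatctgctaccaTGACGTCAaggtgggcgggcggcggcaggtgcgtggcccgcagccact
Tead1: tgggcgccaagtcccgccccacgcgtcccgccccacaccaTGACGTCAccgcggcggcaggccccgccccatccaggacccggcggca

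The mature microRNAs of the locus are credited to RefSeq on GRCm38.p6, with the seed, bases 2 to 8, in capitals. The 3p arms of miR-132 and miR-212 shared the seed AACAGUC, and the 5p arms had a seed each.
miR-132-3p: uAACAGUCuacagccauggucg
miR-212-3p: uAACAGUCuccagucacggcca
miR-132-5p: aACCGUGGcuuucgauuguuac
miR-212-5p: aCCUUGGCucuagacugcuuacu

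Membership did not place a region at a gene start. The deposited offset equalled the gap between the region and the small RNA cluster named on the same row in 99.6%, 99.99% and 99.99% of rows of crebcomb, crebcomb_b2 and crebcomb3. It equalled the gap between region and gene in 4.28%, 8.11% and 7.81%. Offsets reached at most 1982, 2000 and 2000 bases, so the regions lay within 2000 bases of a small RNA cluster. The clusters in turn had been paired with genes over longer distances. From the member's gene start to its crebcomb3 region the median distance was 78746 bases, with quartiles of 20712 and 199772 and a largest value of 2358199. For 200 members (178 symbols, 11.4%) the start lay within 2000 bases of all 3 regions, and for 107 it lay inside all 3. For the other 1557 members, 88.6%, it did not. The 200 members are called near-start members here, a group chosen after these distances were seen.

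**Figure D1:**
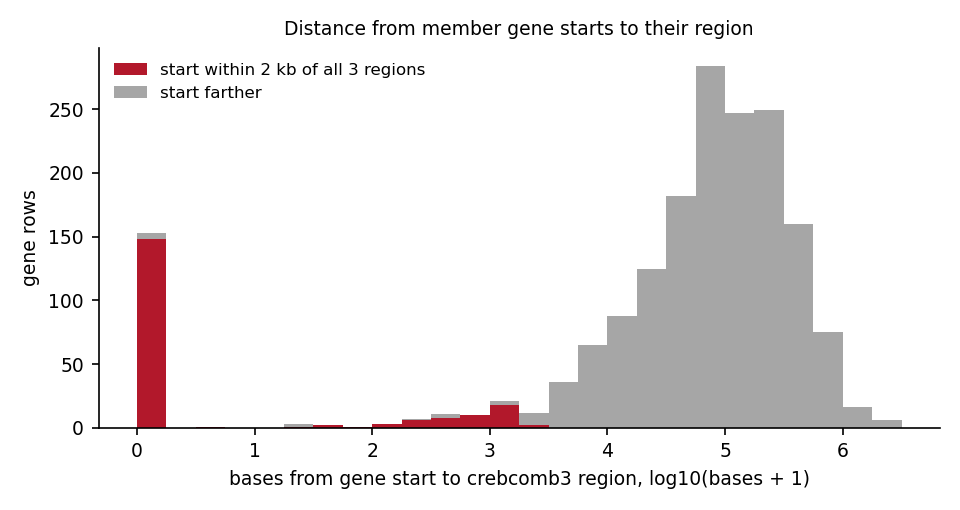
Number of member gene rows by distance from the gene start to the crebcomb3 region, as log10 of bases plus 1. Starts within 2000 bases of all 3 regions (red) number 200, and the rest (grey) lie mostly farther out, with a median over all members of 78746 bases.

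Many members shared their regions. Behind the 1757 gene rows stood 263 crebcomb, 314 crebcomb_b2 and 323 crebcomb3 regions, out of 413, 1173 and 1236 over all deposited rows. Regions farther than 2000 bases from a small RNA cluster are not among these, so the full lists were not seen. Where all 3 lists stood on 1 row they gave 246 distinct triples of regions. A crebcomb3 region of such a triple served a median of 5 gene rows and at most 52. Gene rows are therefore not separate observations of CREB.

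Region heights of members were largest in crebcomb3. Over the members the crebcomb height ranged from 6 to 44 with a median of 9, the crebcomb_b2 height from 6 to 475 with a median of 30, and the crebcomb3 height from 7 to 491 with a median of 42. For gene rows in 2 lists the median crebcomb, crebcomb_b2 and crebcomb3 heights were 9, 14 and 14, with highest values of 56, 493 and 559, and for those in 1 list the medians were 7, 7 and 9. Near-start members had medians of 11, 48.5 and 57.5. Median heights were thus larger for members than for gene rows in 2 lists in crebcomb_b2 and crebcomb3 but not in crebcomb. Among the regions given near small RNA clusters, the tallest of each list was not a member's. Among members the medians were larger where the gene start was near. These are descriptions with no test, since region calling itself depends on height.

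The lists were not independent of each other. In 162 of the 246 triples (65.9%) the regions overlapped in all 3 lists, with a median of 602 bases in common, and in 84 they did not. The crebcomb_b2 and crebcomb3 regions overlapped in 214 triples (87.0%), the crebcomb and crebcomb3 regions in 192 (78.0%), and the crebcomb and crebcomb_b2 regions in 168 (68.3%). Over the 162 overlapping triples Spearman's rho of the heights was 0.98 for crebcomb_b2 with crebcomb3, 0.48 for crebcomb with crebcomb3 and 0.37 for crebcomb with crebcomb_b2. The crebcomb3 height minus the sum of the other 2 heights had a median of -1 and ranged from -32 to 11. It lay within 10% of that sum in 144 of 162 triples (88.9%). Only 1 gene row of the table was in crebcomb and crebcomb_b2 without being in crebcomb3. In overlapping triples a height in crebcomb3 therefore gave little that the other lists did not hold. There the comparison of crebcomb with crebcomb_b2 is the only one between heights that are not near sums of each other. Where regions were apart this did not always hold, as at Mtmr4 with heights of 11, 7 and 289. A further 517 gene rows were in crebcomb3 alone.

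**Figure D2:**
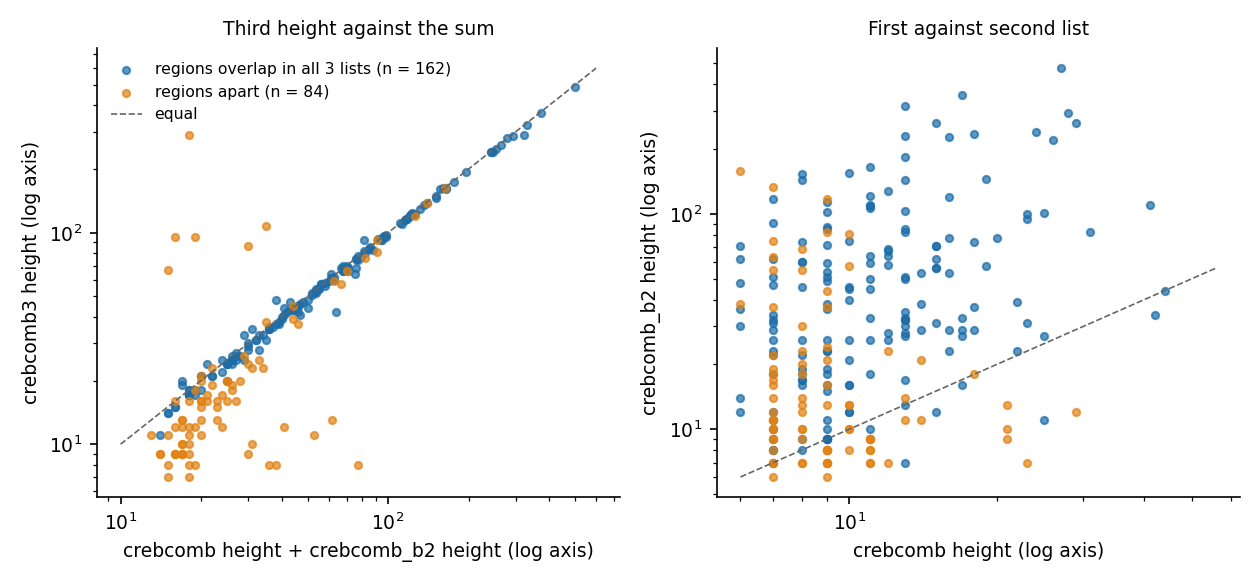
Heights of the 246 triples on log axes, as the crebcomb3 height against the sum of the other heights (left) and crebcomb_b2 against crebcomb (right), with a dashed line of equality. The 162 overlapping triples (blue) lie along the line at left, within 10% of it in 144, whereas at right they scatter widely above it, and the 84 triples apart (orange) sit mostly at low heights.

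Overlapping triples stood apart from the others in height and place. Their median heights were 11, 38 and 52 in the order of the lists, against 9, 11 and 16 where the regions were apart. A gene start lay inside the crebcomb3 region in 107 of 162 overlapping triples (66.0%) and in 20 of 84 (23.8%) that were apart. From the lowest to the highest of 4 classes of crebcomb3 height, that share among the overlapping regions was 36.6%, 60.0%, 77.5% and 90.2%.

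The tallest triple covered the start of Eif4a1, the RNA helicase subunit of the translation initiation complex eIF4F, with heights of 27, 475 and 491 in crebcomb, crebcomb_b2 and crebcomb3. Next came Ifrd1, an interferon-related regulator, with 17, 357 and 370. The region listed with the cluster of miR-22-5p, 6232 bases from the nearest gene start, had 13, 317 and 325. The region at miR-212 and miR-132 had heights of 28, 295 and 291. At Mtmr4 the crebcomb3 height was 289, but the regions of the other lists, at 11 and 7, did not all overlap it. The starts of Zfp143, a zinc finger activator of small nuclear RNA and mRNA genes, and of Hspa5, the endoplasmic reticulum chaperone BiP, had 29, 265 and 288 and 24, 240 and 259, with Trp53inp2 between them at 15, 264 and 282. Fos, the immediate early transcription factor, had heights of 16, 227 and 241. In none of these did the crebcomb height exceed 44, the largest in the set.

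In windows of 500 bases the full CRE was found most often in the overlapping regions. TGACGTCA was searched on both strands in the 500 bases around the centre of each crebcomb3 region, together with the 5-base core TGACG or its complement CGTCA, which every full CRE also contains. The 500-base window was chosen after narrower ones had been examined. A full CRE was present in 23 of 162 overlapping regions (14.2%), in 5 of 81 regions from triples apart (6.17%), in 14 of 783 in crebcomb_b2 and crebcomb3 only (1.79%) and in 45 of all 1236 (3.64%). The core was present in 110 (67.9%), 25 (30.9%), 251 (32.1%) and 428 (34.6%) of these. The contrast with the triples apart depended on the window for the full CRE: in 300 bases the shares were 7.41% of overlapping and 4.94% of apart regions, and in 150 bases 3.70% of both. For the core they were 48.8% and 19.8% in 300 bases, and 27.2% and 12.3% in 150.

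Base composition and position moved with the motif. In the central 300 bases the overlapping regions had a median of 58.8% G and C with 20 CpGs, against 54.7% with 8 CpGs in the regions of crebcomb_b2 and crebcomb3 only, and the part of composition in the motif shares was not tested. Within regions that held a gene start, a full CRE was present in 15.0% of the overlapping ones and in 1.70% of those in crebcomb_b2 and crebcomb3 only, and the core in 72.0% and 44.3%. Within regions that held none, the shares were 12.7% and 1.82% for the full CRE and 60.0% and 26.8% for the core. The difference in motif share was thus present on either side of that split. These classes also differed in height, and they were not compared at like height. Median crebcomb3 heights were 68 and 26 where a gene start lay inside, and 33 and 12 where none did. From the lowest to the highest of the 4 height classes, the core was present in 43.9%, 67.5%, 77.5% and 82.9% of overlapping regions, while the full CRE was present in 2.44%, 15.0%, 25% and 14.6%. The core rose in share with each class of height, and the full CRE had its highest share in the third. The lowest class, with a median height of 21, was nearest in height to the regions of crebcomb_b2 and crebcomb3 only. Those had a median of 14, with the full CRE in 1.79% and the core in 32.1%.

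**Figure D3:**
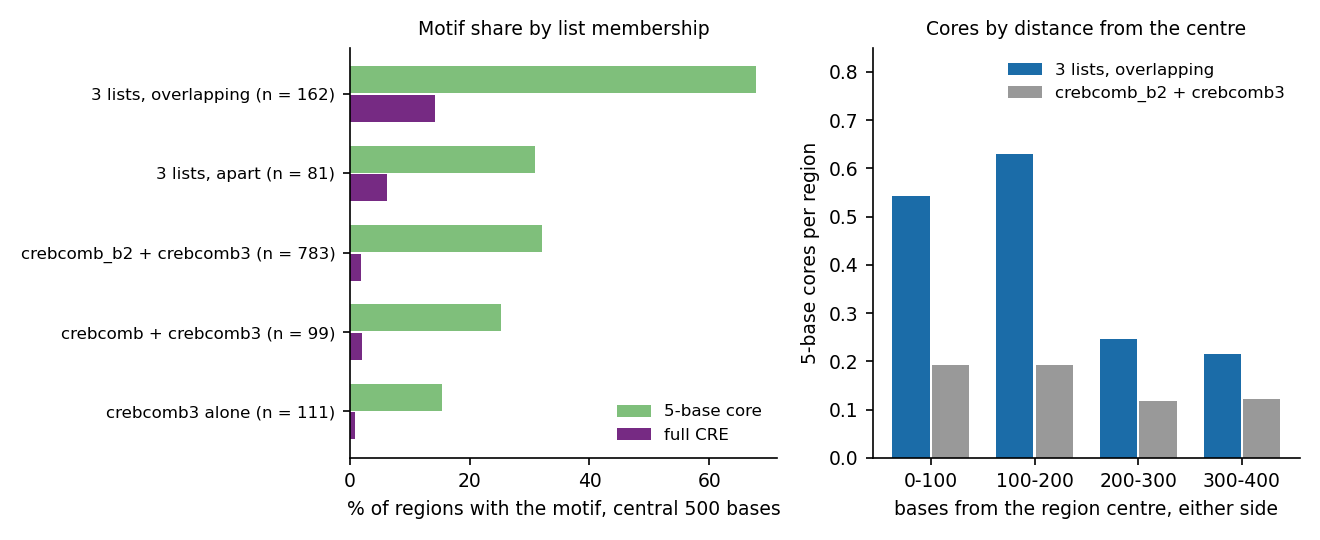
Share of crebcomb3 regions with a full CRE or its 5-base core in the central 500 bases by list membership (left), and cores per region by distance from the region centre (right). Overlapping 3-list regions hold the core in 67.9% and the full CRE in 14.2%, and their cores are densest within 200 bases of the centre.

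Motifs of the overlapping regions lay more often within 200 bases of the centre than farther out. In windows of 801 bases around their centres there were 26 full CREs, of which 7 lay within 100 bases of the centre, 19 between 100 and 200 bases and 0 farther out. The 7 were 26.9% of them, while the inner span was 25.1% of the window, so full CREs did not crowd at the centre itself. The core had 265 matches, with 88 and 102 in the inner bins of 100 bases and 40 and 35 in the outer. In the regions of crebcomb_b2 and crebcomb3 only, 489 matches fell as 150, 150, 93 and 96.

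Among gene promoters, those of near-start members held the motifs most often of the 4 sets compared. RefSeq promoters on GRCm38.p6, of 300 bases each, were matched for 1127 of 1418 member symbols (79.5%), under the 80% that the check of a gene property needs, so that these shares describe the matched symbols alone. A full CRE stood in 13 of 142 promoters of near-start members (9.15%), in 3.24% of those of other members, in 2.37% of those of genes with no region and in 1.88% of all promoters in the reference. The core stood in 80 of 142 (56.3%), 26.3%, 24.4% and 21.0%. Members whose start was far from the region resembled genes with no region in these shares.

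Fos and Junb are shown because they were the only near-start members of a list of 52 measured CREB targets. Of that list, 6 genes were members in all (11.5%, against 7.0% of all symbols): Fos, Junb, Mcl1, Nfib, Nr4a2 and Per1. Neither promoter held a full CRE. In the 250 bases before the start of Fos, chr12:85473640-85473889 on the plus strand of GRCm38.p6, the core occurred at 129 and 66 bases before the start. In those before Junb, a partner of Fos in AP-1, chr8:84978749-84978998 on the minus strand, it occurred once, 106 bases before the start. Capitals mark the core.
Fos: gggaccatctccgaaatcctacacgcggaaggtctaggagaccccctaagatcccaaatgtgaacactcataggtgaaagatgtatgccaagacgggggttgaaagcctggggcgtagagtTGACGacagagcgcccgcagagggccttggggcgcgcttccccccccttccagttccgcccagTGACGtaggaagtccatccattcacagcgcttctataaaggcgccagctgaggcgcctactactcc
Junb: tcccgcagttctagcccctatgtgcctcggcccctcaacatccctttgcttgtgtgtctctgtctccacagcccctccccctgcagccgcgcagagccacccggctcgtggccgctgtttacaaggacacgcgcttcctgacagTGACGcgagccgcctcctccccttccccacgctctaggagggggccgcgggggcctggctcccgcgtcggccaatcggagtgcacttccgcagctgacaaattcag

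For mRNA the files give no value per library, only the authors' mean signed fold and mean q-value of each time against control. A gene row was counted as higher or lower where the mean q was under 0.05 and the mean fold was at least 1 in size, and rows with a fold of 0 were taken as having none. The 3 times share their 2 control libraries. In bulk tissue a loss of cells of a type cannot be told apart from less RNA per cell. Levels of tissue markers per library were not analysed here, and of the cell type markers listed for hippocampus only Mog of oligodendrocytes and Pecam1 of endothelium were members.

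At 12 h the authors' deposited table had 158 of 1572 members with a fold as higher (10.1%) and 135 as lower (8.59%). Over all gene rows with a fold the shares were 10.8% higher and 7.73% lower, and over rows with no region 10.8% and 7.57%. At 10 d 109 of 1598 members were higher (6.82%) and 215 lower (13.5%), against 8.30% and 11.8% over all rows and 8.11% and 11.7% over rows with no region. At 6 wk 151 of 1501 members were higher (10.1%) and 217 lower (14.5%), against 10.0% and 12.4% over all rows and 10.5% and 11.8% over rows with no region. The members' shares lay close to the background at each time. The lower calls were slightly more frequent among members at all 3 times, and the higher calls slightly less frequent than in rows with no region. The share of members with a fold was 89.5%, 91.0% and 85.4% at 12 h, 10 d and 6 wk, against 82.5%, 84.5% and 78.1% of rows with no region, and its part in these differences was not tested.

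The median fold of members was near that of rows with no region at 12 h and 10 d and lower at 6 wk. Among folds of at least 1 in size, the median on the signed log2 scale over members was 0.43, 0.33 and -0.55 at 12 h, 10 d and 6 wk in the authors' deposited table, against 0.46, 0.33 and -0.11 over rows with no region. Of members with a fold at all 3 times, 11 of 1477 were higher at each (0.745%) and 40 lower at each (2.71%). Over rows with no region 1.04% were higher and 1.67% lower at each time.

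Near-start members were lower more often than members at a distance, as a description with no test. At 12 h 21 of 199 near-start members were higher (10.6%) and 26 lower (13.1%) in the authors' deposited table, against 9.98% and 7.94% of other members. At 10 d 30 were higher (15.1%) and 39 lower (19.6%), against 5.65% and 12.6%. At 6 wk 21 of 197 were higher (10.7%) and 45 lower (22.8%), against 9.97% and 13.2%. Over all gene rows with a fold, 10.8%, 8.30% and 10.0% were higher and 7.73%, 11.8% and 12.4% lower. Lower calls exceeded these shares near a start with or without the 3 lists. Of gene rows with a start near regions of only 1 or 2 lists, 10.9%, 16.6% and 19.8% were lower at 12 h, 10 d and 6 wk. Of the 126 rows with no region but a small RNA cluster within 2000 bases of the start, 9.09%, 18.3% and 24.5% of those with a fold were lower. Higher calls came to 11.8%, 11% and 11.3% in the first of these classes and to 6.36%, 13.0% and 11.8% in the second. A fold was listed for 99.5% of near-start members at 12 h and at 10 d.

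**Figure D4:**
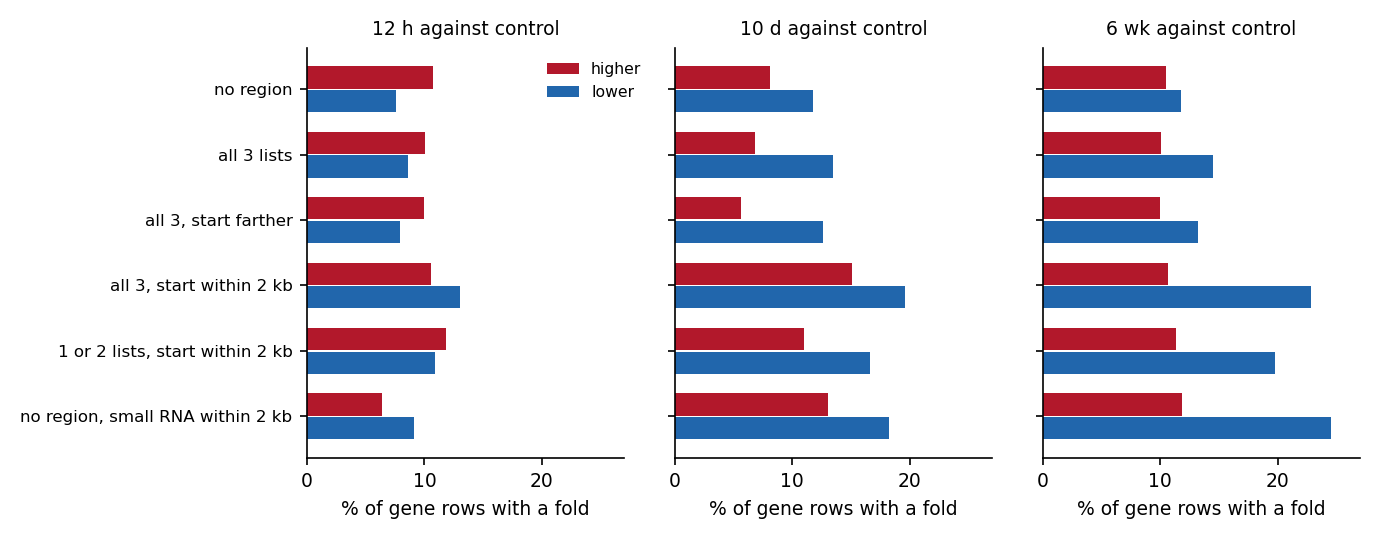
Percent of gene rows with a fold that the authors' values give as higher (red) or lower (blue) than control at each time, by class of gene row. All 3-list members lie near the rows with no region, while the classes with a start near a region or near a small RNA cluster reach 19.8% to 24.5% lower at 6 wk.

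Lower calls were most frequent among near-start members with neither motif and among those at lower heights, in splits chosen after the values were seen and not tested. Over all gene rows 10.8%, 8.30% and 10.0% were higher and 7.73%, 11.8% and 12.4% lower at 12 h, 10 d and 6 wk. With a full CRE in the region, 1 of 24 was higher and 3 lower at 12 h in the authors' deposited table, 2 higher and 2 lower at 10 d, and 3 higher and 6 lower at 6 wk. With the core only, 13 of 103 were higher and 11 lower at 12 h, 19 and 20 at 10 d, and 15 and 20 of 102 at 6 wk. With neither, 7 of 71 were higher and 12 lower at 12 h, 9 and 16 at 10 d, and 2 and 19 of 70 at 6 wk. With neither, 16.9%, 22.5% and 27.1% were thus lower, the largest share of the 3 classes at each time. With a full CRE the shares were 12.5%, 8.33% and 25%, and with the core only 10.7%, 19.4% and 19.6%. The core share rose with height in overlapping regions, so this split and the next are not separate. By height, 18.2%, 26.0% and 25.5% of near-start members with a crebcomb3 height of 57 or less were lower at 12 h, 10 d and 6 wk, against 8.00%, 13.1% and 20.2% of those at 58 or more. Higher calls came to 12.1%, 16.0% and 6.12% at the lower heights and to 9.0%, 14.1% and 15.2% at the upper ones, the larger share being at lower heights at 12 h and 10 d and at upper heights at 6 wk.

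Of the CREB target members, Fos, Junb and Nr4a2 passed at 1 time or none. Fos had mean folds of 11.7, 9.37 and 171.8 at 12 h, 10 d and 6 wk in the authors' deposited table, and passed mean q at 10 d only (q 0.254, 0.0449 and 0.412). Junb had 1.05, 2.82 and 0.338 and passed at no time. Nr4a2, an orphan nuclear receptor of the immediate early class whose start lay 66348 or 57383 bases away, had 7.09 or 7.05, 5.96 and 1.74 on its 2 gene rows and passed at no time.

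The remaining target members lay far from their regions. Per1, a clock gene with starts 11427 and 10225 bases away, was lower at 10 d with a mean fold of -11.0 in the authors' deposited table (q 0.0209). Nfib, a nuclear factor I gene 95530 bases away, was lower at all 3 times, with folds of -3.54, -3.34 and -1.63 on the first of its 3 gene rows. Mcl1, an anti-apoptotic BCL2 relative 270111 bases away, passed at no time. Of 14 measured genes of the CREB family and its coactivators, only Creb3, an endoplasmic reticulum-bound relative 69418 bases away, was a member, and it was lower at 10 d (-9.06, q 9.34e-05).

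Among the genes under the tallest regions, Zfp143 was higher at every time, with mean folds of 69.8, 52.7 and 33.1 in the authors' deposited table (q 0.00177, 4.29e-10 and 6.18e-06). Eif4a1 was lower at 6 wk (-2.34, q 0.0194) and passed at neither earlier time, with -4.17 and 0.370. Ifrd1 was higher at 6 wk only (1.72, q 5.15e-05), with 10.4 and -9.90 before. Senp3, a SUMO protease whose start lay 9185 bases from the Eif4a1 region, was higher at 12 h (20.8, q 3.92e-13) and 6 wk (21.3, q 0.00234). The tallest regions thus had genes with folds of either sign.

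Starts that shared a region were not always called at the same times. Nprl2 and Cyb561d2 shared heights of 18, 235 and 248. Nprl2, a subunit of the GATOR1 complex that restrains mTORC1, was lower at 10 d (-56.0, q 0.0161) and 6 wk (-75.9, q 0.0282) in the authors' deposited table, with 1.86 at 12 h. Cyb561d2, a cytochrome b561 family member, was lower at 12 h (-12.3, q 0.0105) and 6 wk (-54.3, q 0.000806). Akt1s1, the mTORC1 component PRAS40, was higher at 12 h (3.53, q 0.00644) and 6 wk (19.8, q 0.0256), whereas Tbc1d17 under the same heights of 26, 221 and 242 passed at no time.

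Chaperones under near regions fell or did not pass, a group named after its values were seen. Hsp90ab1 was lower at 12 h (-1.31, q 0.00120) and 6 wk (-1.66, q 9.82e-16) in the authors' deposited table. Dnaja1, an HSP40 cochaperone, was lower at 12 h (-2.05, q 8.20e-06) and 10 d (-4.14, q 0.00210) on each of its gene rows. Hsp90aa1, the inducible HSP90, was lower at 10 d (-3.15, q 0.000107). Hspa5 was called at no time. Farther off, Hspa1a, an inducible HSP70 with its start 19376 bases away, was lower at 12 h, 10 d and 6 wk with folds of -23.0, -70.4 and -117.1.

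Ribosomal protein genes were frequent in the set. Of 85 measured symbols 18 were members (21.2%) and 9 near-start members (10.6%), against 7.0% and 0.879% of all symbols. In all, 20 of the 85 were near-start members or had a start near a region of only 1 or 2 lists. Over all 20258 symbols 178 and 402 fell in those classes, so the frequency near a start was not particular to the 3 lists. Regions were given only near small RNA clusters, and the part of that rule in these shares was not tested. Of the 9 near-start members, 1 was higher and 0 lower at 12 h, 3 were higher and 0 lower at 10 d, and 0 were higher and 2 lower at 6 wk in the authors' deposited table. Over all gene rows with a fold 10.8%, 8.30% and 10.0% were higher and 7.73%, 11.8% and 12.4% lower at those times, and 9 genes are too few to set against these shares. Rplp1 was higher at 12 h (2.91, q 1.98e-05) and 10 d (3.30, q 0.00252), Rps3 at 10 d (2.78, q 1.60e-15) and Rplp2 at 10 d (27.6, q 0.00149). Rpl13a (-7.88, q 9.82e-16) and Rpl4 (-2.44, q 5.17e-10) were lower at 6 wk. Ribosomal protein genes have many processed copies in the genome, so how uniquely mapped reads were split among them limits these folds.

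Respiratory chain and proteasome genes also exceeded all symbols in near-start share, in small counts. Of the respiratory chain 11 of 99 symbols were members (11.1%) and 4 near-start (4.04%), against 7.0% and 0.879% of all symbols. Ndufa2, a complex I subunit, was higher at all 3 times, with folds of 4.83, 18.9 and 4.77 in the authors' deposited table. Atp5b, the beta subunit of ATP synthase, was lower at 10 d (-1.46, q 0.0324) and 6 wk (-2.28, q 9.82e-16). Of the proteasome 8 of 49 were members (16.3%) and 3 near-start (6.12%), none of which passed at any time. Of splicing factors 2 of 58 (3.45%), of zinc finger genes 15 of 326 (4.60%), of ubiquitin-conjugating enzymes 1 of 34 (2.94%) and of histone genes 7 of 64 (10.9%) were members.

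Of 196 near-start members with a fold at all 3 times, 3 were higher (1.53%) and 6 lower (3.06%) at every time in the authors' deposited table, against 0.999% and 1.94% of all gene rows. Zfp143, Ndufa2 and 2010106G01Rik were higher at each, and Mdh1, Slc25a36, Aloxe3, Mdp1, Rraga and Mark1 were lower at each. Mdh1, cytosolic malate dehydrogenase, had folds of -1.75, -3.52 and -2.25 at 12 h, 10 d and 6 wk in the authors' deposited table. Rraga, a Rag GTPase that recruits mTORC1 to lysosomes, had -3.20, -2.30 and -12.1. Mark1, a microtubule affinity-regulating kinase, had -2.40, -2.01 and -37.1. Slc25a36, a mitochondrial carrier with a full CRE in its region, had -3.11, -49.7 and -21.1. Among larger rises, Efnb2, an ephrin ligand, was higher at 12 h only (32.7, q 1.21e-15), and Plxdc1 at 10 d only (117.1, q 8.66e-16).

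Among members that passed, the largest rise and the largest fall at each time belonged to genes whose start lay over 2000 bases from the region, as 88.6% of all members' starts did from at least 1 of their regions. At 12 h H2-Ke2, 84042 bases away, had a fold of 157.4 in the authors' deposited table, and Arih2, 78645 bases away, had -99.1. At 10 d Cd72, a B-cell surface receptor 37743 bases away, had 152.9, and H2-Ke6, 2851 bases away, had -95.7. At 6 wk Aasdh, 68629 bases away, had 151.2, and Begain, a postsynaptic density protein 231813 bases away, had -315.9. The reads behind these folds are not known, so their precision cannot be given.

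The clusters of small RNA that tie the regions to genes were counted in 8 libraries, 2 per group. Nothing in the sources used here describes their preparation or says that they came from separate animals or from the pools of the poly(A) libraries, so that the p-values rest on library spread alone, which may be technical. Tags over the clusters in the table, which are part of each library, ran from 460586 to 2534199. Of 7250 clusters 343 had a region in all 3 lists, and these held 5.15% of the tags in the table. They included 45 on microRNAs (13.1%, against 20.4% of the 5020 clusters with no region) and 52 on small nucleolar or small nuclear RNAs (15.2%, against 1.89%). A further 157 lay on other exons, 45 in introns and 44 between genes.

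Enough tags for a test were present in 114 of the 343 clusters. At 12 h 0 of 114 were higher and 0 lower by edgeR's quasi-likelihood test with Benjamini-Hochberg adjustment, as in all 2048 clusters tested (0% and 0%). At an unadjusted p under 0.05 by edgeR there were 4 higher and 6 lower, against 98 and 57 of all 2048 clusters. DESeq2 gave 0 and 2. At 10 d 2 were higher and 0 lower by edgeR, against 4.10% and 0.293% of all clusters. At an unadjusted p under 0.05 there were 10 and 9, against 258 and 86 of all 2048, and by DESeq2 4 and 6. At 6 wk 7 were higher (6.14%) and 2 lower (1.75%), against 8.94% and 1.32% of all clusters and 10.5% and 1.11% of clusters with no region. At an unadjusted p under 0.05 there were 17 and 11, against 361 and 125 of all 2048, and by DESeq2 8 and 6. By edgeR's adjusted calls the shares were near or under the background, so the set as a whole did not stand out there. At an unadjusted p the lower clusters were a larger share of the set than of all clusters at each time, and the higher ones a smaller share. These differences were not tested, and for DESeq2 the share over all clusters is not given here. Without 1 library in turn, the count at 10 d ranged from 0 to 2 higher, and at 6 wk from 0 to 6 higher and 0 to 1 lower.

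Of the 7 clusters higher at 6 wk, 4 were the arms of miR-212 and miR-132 at the locus printed above. The tags of miR-212-5p were 444 and 596 in the control libraries, 376 and 1144 at 12 h, 1018 and 267 at 10 d, and 1666 and 1749 at 6 wk, in libraries of unequal depth. As CPM, the tags scaled to one library size with TMM factors, that was 536 ± 18.1 in control, 502 ± 28.9 at 12 h, 550.5 ± 12.4 at 10 d and 1167 ± 178 at 6 wk (SD, n = 2 each). Both libraries at 6 wk lay above all the others, and the earlier groups lay close together. The log2 fold at 6 wk was 1.12 (SE 0.14, adjusted p = 0.00918 by edgeR's quasi-likelihood test with Benjamini-Hochberg adjustment over 2048 clusters). That p rose to between 0.0619 and 0.0754 without either control library or either 6 wk library, and the call held in 4 of 8 such fits.

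The other arms moved the same way with less precision. The tags of miR-132-3p were 1828 and 2556 in control, 1382 and 4733 at 12 h, 5450 and 1148 at 10 d, and 5259 and 5636 at 6 wk. Scaled, they were 2252 ± 10.9 CPM in control, 1956 ± 51.0 at 12 h, 2652 ± 351 at 10 d and 3718 ± 512 at 6 wk (SD, n = 2 each). The libraries at 6 wk were the highest and those at 12 h the lowest. The log2 fold at 6 wk was 0.72 (SE 0.14, adjusted p = 0.0273 by edgeR), and the call held in 2 of the 8 fits that left out a library.

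For miR-212-3p the scaled tags were 471 ± 34.6 CPM in control, 493 ± 25.6 at 12 h, 693 ± 59.4 at 10 d and 843 ± 148 at 6 wk (SD, n = 2 each). For miR-132-5p they were 329 ± 76.0, 438 ± 27.1, 398 ± 20.5 and 655 ± 133 in the same order. In each, both libraries at 6 wk lay above both controls. The log2 folds at 6 wk were 0.84 (SE 0.16, adjusted p = 0.0281) and 0.99 (SE 0.22, adjusted p = 0.0428) by edgeR, and with any 1 of the 8 libraries left out neither passed, with adjusted p from 0.0596 to 0.271 and from 0.0693 to 0.229. The direction was higher in every such fit of the 4 arms. None of the arms passed at 12 h or 10 d. The arms share a host transcript and its libraries, so they are not 4 separate observations.

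**Figure D5:**
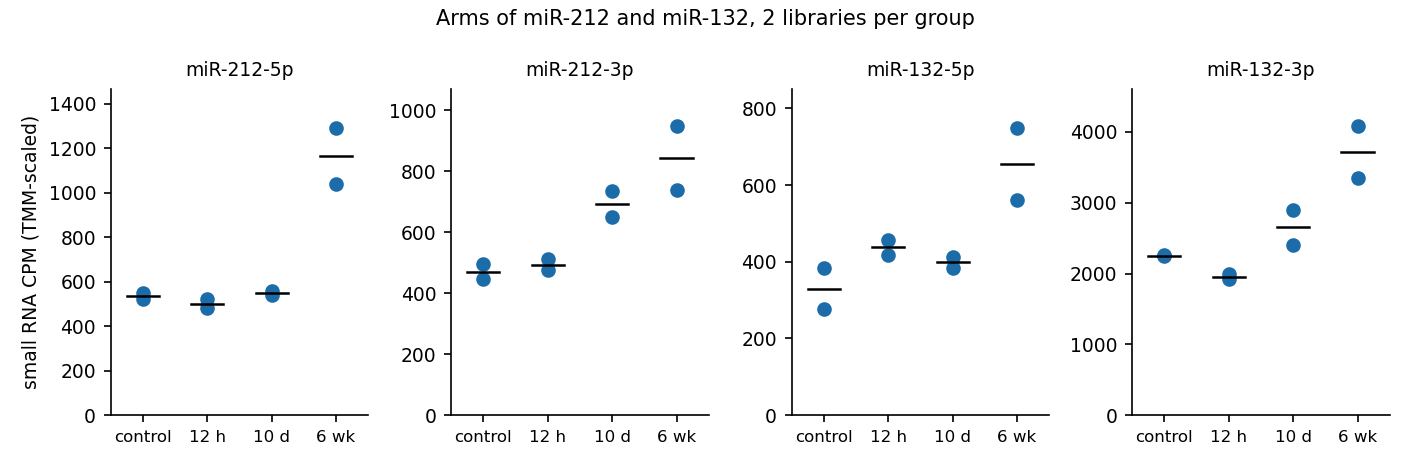
Small RNA CPM with TMM factors for the 4 arms of the miR-212 and miR-132 locus, with 2 libraries per group as points and their mean as a bar. In each arm both libraries at 6 wk lie above both controls, and for miR-212-5p the group means are 536, 502, 550.5 and 1167.

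The genes listed with that locus gave no common direction in mRNA. Smg6, an endonuclease of nonsense-mediated decay with its start 247133 bases away, was higher at 12 h (1.23, q 0.0347) and 10 d (7.51, q 0.000414) in the authors' deposited table. Hic1, a transcriptional repressor, was read on a gene row whose start lay 4852 bases away. That row and Ovca2, 4904 bases away, passed at no time, with folds of 11.2 and -9.62 at 12 h. A nearer Hic1 start lay 2749 bases from the region, and its folds are not given here.

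Other microRNAs of the set did not pass. The most abundant cluster of the set, miR-191-5p, had a mean of 18729 CPM, and its adjusted p by edgeR was 0.798, 0.163 and 0.188 at 12 h, 10 d and 6 wk. The 19 microRNA clusters tested gave 0 calls at 12 h and at 10 d and 4 higher at 6 wk, all from the miR-212 and miR-132 locus. On the same chromosome, miR-22-5p had 51.7 ± 1.41 CPM in control and 73.6 ± 12.3 at 6 wk (SD, n = 2 each), with a log2 fold of 0.51 (SE 0.24, adjusted p = 0.284 by edgeR). Farther along, miR-423 had log2 folds of -0.22 for the 5p and 0.06 for the 3p arm at 6 wk.

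Clusters on small nucleolar and small nuclear RNAs were mostly below control without passing. Such RNAs guide RNA modification or splicing and are often cut from introns of ribosomal protein or noncoding host genes. Of the 36 tested, 25, 27 and 27 had a log2 fold below 0 at 12 h, 10 d and 6 wk, with medians of -0.12, -0.21 and -0.19. Over all 2048 clusters tested the medians were -0.04, -0.03 and 0.08, and the share below 0 was not counted. Clusters of this kind can share a host gene, and all share the same libraries, so the 36 are not separate observations. Of the 36, 0 passed by edgeR at 12 h and 10 d. At 6 wk 1 passed, a cluster on SNORD27 in the noncoding host gene Snhg1 (chr19:8799022-8799063), whose log2 fold was -0.64 (SE 0.11, adjusted p = 0.0223), held in 2 of 8 fits with a library left out. Its CPM was 1394 and 1326 in control, 1008 and 959 at 12 h, 1067 and 949 at 10 d, and 873 and 869.9 at 6 wk. Each of the 6 libraries after seizures lay below both controls.

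The remaining calls lay in an intron or between genes. A 17-base cluster in an intron of Dirc2 (chr16:35768884-35768900) had 16.1 and 16.7 CPM in control, 67.6 and 75.4 at 10 d, and 47.3 and 68.5 at 6 wk. Its log2 fold was 2.12 at 10 d (SE 0.28, adjusted p = 0.0123 by edgeR) and 1.82 at 6 wk (SE 0.27, adjusted p = 0.0156), each held in 4 of 8 fits with a library left out. A cluster 10553 bases from the start of Tmpo (chr10:90644880-90644913) had log2 folds of 1.93 and 1.61 at those times, and with a library left out it never passed. A cluster 679 bases from the start of Agbl5 (chr5:31190517-31190545) was higher at 6 wk by 2.19 (SE 0.29, adjusted p = 0.0110), held in 4 of 8. A cluster 6536 bases from the start of Shf (chr2:122201190-122201229) was lower at 6 wk by -0.89 (SE 0.21, adjusted p = 0.0480), held in 0 of 8. These coordinates are on mm9.

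Between the times after seizures few clusters of the set differed. By edgeR's quasi-likelihood test with Benjamini-Hochberg adjustment, 2 of 114 differed between 10 d and 12 h, against 3.76% of all 2048 clusters. For 6 wk against 12 h 7 did, against 12.8%, and for 6 wk against 10 d 2 did, against 4.54%. The arms of the miR-212 and miR-132 locus gave 3 of the 7, all higher at 6 wk, and 1 of the last 2.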

How the data were processed

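One table of the series was used. Reads of 8 poly(A) libraries were mapped to mm9 with Bowtie and counted in RefSeq exons, per the labels and the submitters' processing notes. The authors deposited a signed mean fold (a score) and a mean q-value per time. The sources used here do not say how these were made. Region height is a score the authors deposited on an unstated scale. The offset, in bases, is another deposited column. Small RNA tag counts are the authors' unscaled counts, and their sums over the distinct clusters of the table, which are part of each library, served as library sizes. In all, 24 per-sample columns were not used.

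Members and lists were chosen with earlier results of these data known. The design allowed for mRNA values per library, but mRNA is described from the authors' values alone, with no test. Of 29208 table rows, 96 without a gene name were dropped. The time in a column's name gave its group.

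Small RNA clusters were fitted with edgeR 4.0.16 (quasi-likelihood, TMM, filterByExpr, 8 libraries, R 4.3.3), with DESeq2 1.42.0 as an alternative. This test, the near-start group and the windows of 500, 300 and 150 bases were chosen after the table was seen. After the fit, counts were simulated from its means and spread with 200 clusters changed at 12 h, and fitted the same way. Of the changed clusters kept by the filter on low counts, 22.2% were called at a 4-fold and 57.1% at an 8-fold change. The library sizes were 797652 and 1178423 tags in control, 712981 and 2534199 at 12 h, 1910482 and 460586 at 10 d, and 1260241 and 1625813 at 6 wk. Sequence was read with samtools 1.23.1 from mm9, whose 21 chromosomes held every coordinate of the table, and none is printed from chromosome 18. Promoters and microRNAs came from RefSeq tables on GRCm38.p6. Tables were handled with Python 3.11.15 and pandas 2.3.3.

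Genes were named by rule: the tallest 8 by mean rank of height, the largest 5 rises and falls per time, those called alike at 3 times, CREB targets and family members, and the widest spread of offsets. Near-start genes, chaperones and the housekeeping examples were chosen after their values were seen. Not every gene of the rule is printed.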

Additional observations from a re-analysis of the deposited data

Results flagged for a closer look

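For 7 small RNA clusters of the set the change from control differed between 2 times after seizures, tested as a contrast between the times in edgeR's quasi-likelihood fit with Benjamini-Hochberg adjustment over 2048 clusters. The times share their control libraries, which cancel in these contrasts. Of the 114 clusters 2 passed for 10 d against 12 h, 7 for 6 wk against 12 h and 2 for 6 wk against 10 d, while 3.76%, 12.8% and 4.54% of all clusters did.

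At the miR-212 and miR-132 locus the log2 difference of 6 wk minus 12 h was 0.93 for miR-132-3p, 1.22 for miR-212-5p and 0.77 for miR-212-3p, and that of 6 wk minus 10 d was 1.08 for miR-212-5p. The fourth arm, miR-132-5p, did not pass in these contrasts. For the cluster in an intron of Dirc2, 10 d minus 12 h was 2.09 and 6 wk minus 12 h was 1.79. For the cluster nearest to Tmpo they were 2.11 and 1.80. The cluster near Agbl5 was higher at 6 wk than at 12 h by 2.81 and than at 10 d by 1.92. A cluster 1368 bases from the start of Aloxe3 (chr11:68938495-68938510 on mm9) was higher at 6 wk than at 12 h by 2.25. Its CPM was 4.17 and 6.73 at 12 h, where 3 tags are worth 4.21 and 1.18 in the respective libraries.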

How the results depend on the processing

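Of the alternatives to the counts, shares and medians, 114 stayed close to the main value, 42 moved it and 1 reversed it. Close meant within a factor of 1.5 for counts, shares and median heights, and within 0.1 for median log2 folds. The shares of called members differed from those of rows with no region by less than that factor. With only near-start members, lower calls at 12 h came to 13.1%, higher calls at 10 d to 15.1% and lower calls at 6 wk to 22.8%. With 1 gene row per region, lower calls at 12 h were 13.2% and higher calls at 10 d 12.9%. The median signed log2 fold was 0.31, 0.23 and -0.16 at 12 h, 10 d and 6 wk with every fold kept, a scale on which mean folds under 1 in size change sign. It was 0.43, 0.33 and -0.55 without such folds. Among folds with q under 0.05 it was 0.51, -0.98 and -0.78, so that the sign reversed at 10 d, where 1 row per symbol gave 0.33. A full CRE stood in 7.41% of overlapping regions in 300 bases and in 3.70% in 150, where the core stood in 27.2%. DESeq2 called 2 small RNA clusters lower at 12 h, 4 higher and 6 lower at 10 d and 6 lower at 6 wk. With no filter on low counts there were 1 higher at 10 d, and 3 higher and 0 lower at 6 wk. With each library left out in turn, 0 to 2 were higher and 0 to 0 lower at 10 d, 0 to 6 higher and 0 to 1 lower at 6 wk, and 0 to 0 either way at 12 h. Fewer libraries leave less to estimate the spread, and a group reduced to 1 library is assumed to vary like the others.

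Members had a higher share of lower calls than rows with no region in 12 of 12 settings at 12 h, 11 at 10 d and 12 at 6 wk, and of higher calls in 4, 2 and 8. These settings count the same folds again over the same or nested gene rows, so their agreement is not separate support. No paired analysis was possible because the mRNA values belong to no library and the small RNA columns carry numbers that the groups do not share. For the same reason the planned replicate block and left-out libraries were not run for mRNA. With 2 libraries a group, a small RNA cluster that did not pass is not shown to be unchanged.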
